A study of Astatotilapia calliptera and Haplochromis burtoni and Pundamilia nyererei with 40 samples.

Results

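DIRS and Ngaro elements are retrotransposons that code for a reverse transcriptase and, in place of the DDE integrase of Gypsy, Pao and endogenous retrovirus (ERV) elements, a tyrosine recombinase. They are thought to go through a circular DNA copy and to integrate by recombination, and their ends are split or inverted repeats rather than a pair of plain long terminal repeats (LTRs). DIRS elements were first known from the slime mould Dictyostelium and Ngaro elements from zebrafish, and repeat annotation places both in the LTR class. In animal gonads, many transposable elements (TEs) are silenced by the piRNA pathway, in which Piwi proteins are guided by small RNAs. The study compared likely active with inactive families on a curated annotation, which holds 2 DIRS families here. For DIRS, it found higher expression of likely active families in Astatotilapia calliptera ovaries, testes or both, without an opposite pattern in piRNA levels. Among the superfamilies with such expression, it found that opposite pattern for PiggyBac alone. From this group of superfamilies it proposed that some likely active families evade piRNA silencing. The members described here are all TE families whose superfamily starts with DIRS or Ngaro in 5 tables of mRNA counts. The rule found 63 entries among 3653 TE family entries, 13 of them DIRS and 50 Ngaro, and it used the annotated name alone and no measured value.

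Poly(A) RNA from gonads of wild-type East African cichlid fishes was sequenced, and reads were counted per gene and per TE family. The species were Astatotilapia calliptera (AC, Lake Malawi), with 4 ovaries and 4 testes, Astatotilapia burtoni (AB, Lake Tanganyika), with 3 ovaries and 4 testes, Pundamilia nyererei (PN, Lake Victoria), with 3 ovaries and 4 testes, and Oreochromis niloticus (ON, the Nile tilapia, used as an outgroup), with 3 of each. Testes of 2 further Lake Malawi species, Maylandia zebra (MZ, 2 libraries, from dominant males of a commercial supplier) and Tropheops sp. 'mauve' (TM, 4 libraries), were counted on the AC genome, so that 34 gonad libraries enter the tables. All groups were untreated and carried no introduced allele. The labels give no ages, and replicates were separate fish matched for size per the study's methods. PN gonad libraries were made in the study's own laboratory and the other gonad libraries by a company, so that species and library preparation cannot be told apart for PN. Brain libraries of AC were not analysed here.

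Libraries held between 8554149 and 26742599 counts assigned to genes and TE families, and 2 PN libraries, ovary replicate 2 and testes replicate 3, were the shallowest. Scaling factors (TMM, a correction for library composition) were lowest in AC ovary replicate 1 (0.636) and PN ovary replicate 2 (0.599). In ON they split by organ, at 0.711 to 0.798 in ovaries and 1.31 to 1.36 in testes. PN split as well, at 0.599 to 1.07 in ovaries and 1.17 to 1.26 in testes. TE families took 0.887% to 1.22% of assigned counts in ON ovaries and 4.44% to 4.82% in ON testes. Fold changes in ON and PN thus depend on this scaling. In AC, where gene names could be matched, all 3 meiotic and all 5 sperm cell markers tested were higher in testes, and 1 of 2 markers of testis somatic cells was. The 4 oocyte markers tested (gdf9, bmp15, figla and zar1) went against a clean separation of the organs. They summed to between 1719 and 2774 CPM (counts per 1000000 scaled counts) in testes and between 1732 and 3925 CPM in ovaries, and 0 of 4 passed the edgeR test, with 1 lower at an unadjusted p under 0.05 and 1 lower by DESeq2. The part of oocyte RNA in the AC results was not tested. Gene identifiers of the other tables are not paired with names, so tissue markers were not checked in AB, PN or ON.

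The annotations differed in how many such families they hold. The curated AC annotation holds 2 DIRS families, DIRS-1 and DIRS-2, and 0 Ngaro families among 557 TE families. The uncurated annotation of the same genome holds 2 DIRS and 19 Ngaro families among 774, and it was applied to the same 8 AC gonad libraries, so that the AC values under both annotations are not independent. The tables of the other species hold 1 DIRS and 10 Ngaro families (AB), 3 and 7 (PN) and 5 and 14 (ON). The uncurated families carry the serial names of a repeat finder run on each genome, and a name shared by tables, such as rnd-1_family-1, does not mark the same element. Detectable families, with more than 10 counts in at least 2 libraries, numbered 2 of 2 (AC curated), 20 of 21 (AC uncurated), 11 of 11 (AB), 10 of 10 (PN) and 17 of 19 (ON). A filter on low counts left 59 of the 63 entries for testing, all 13 DIRS entries and 46 of 50 Ngaro entries. It asks for enough counts in as many libraries as the smaller group holds, from either organ. The DIRS families rnd-5_family-6295, rnd-6_family-912 and rnd-6_family-913 of ON could not have passed it on their ovaries alone. Nor could rnd-6_family-886 and rnd-5_family-4073 of PN. Counts were not divided by element length, so levels are compared here between organs and not between families. Reads matching many places were kept and shared out among copies, so related families may share reads.

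The summed level of the DIRS families was higher in testes than in ovary in all 4 species with both organs. Summed over its DIRS families, each testes library lay above each ovary library of its table, and the log2 ratio of the means ran from 1.14 in the curated AC table to 3.76 in ON. All 13 fitted differences were above 0. Of them, 9 of 13 passed the edgeR quasi-likelihood test across all genes and TE families of their table (adjusted p under 0.05, called from here on). The ON and PN families named above that passed the filter through their testes are among the called entries. Those calls are not independent of the filter. Called lower were 0, with 0 lower at an unadjusted p under 0.05 and 0 lower by DESeq2 or limma. The limma check held TE families alone and adjusted over them. The AC entries, 2 under each annotation, rest on the same 8 libraries and are not independent. The median log2 fold change over all TE families was above 0 in each table as well. It was 0.93 (AC curated), 0.41 (AC uncurated), 1.66 (AB), 0.52 (PN) and 1.82 (ON). Each count of calls is thus given below beside the share of all TE families called in that direction. Over all TE families, the share above 0 or without overlap was not counted. Of all genes and TE families together, 22.8% (AC curated), 22.2% (AC uncurated), 75.3% (AB), 45.5% (PN) and 79.9% (ON) were called in either direction. In whole gonads, more cells that transcribe an element and more transcripts per cell cannot be told apart. A fit on TE families alone left out the genes, so that scaling, spread and p adjustment all rested on TE families. It centres the TE families themselves on 0. There 11 of the 13 DIRS entries stayed above 0, and 9 were called higher. DIRS-2 of the curated AC table and rnd-5_family-4861 of PN lay below 0. As a share of all TE counts, a measure that needs no scaling between libraries, DIRS of testes and ovaries again did not overlap in AB, PN, ON and the uncurated AC table, while in the curated AC table ovary replicate 4 (0.136%) lay within the range of the testes (0.115% to 0.167%).

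**Figure D1:**
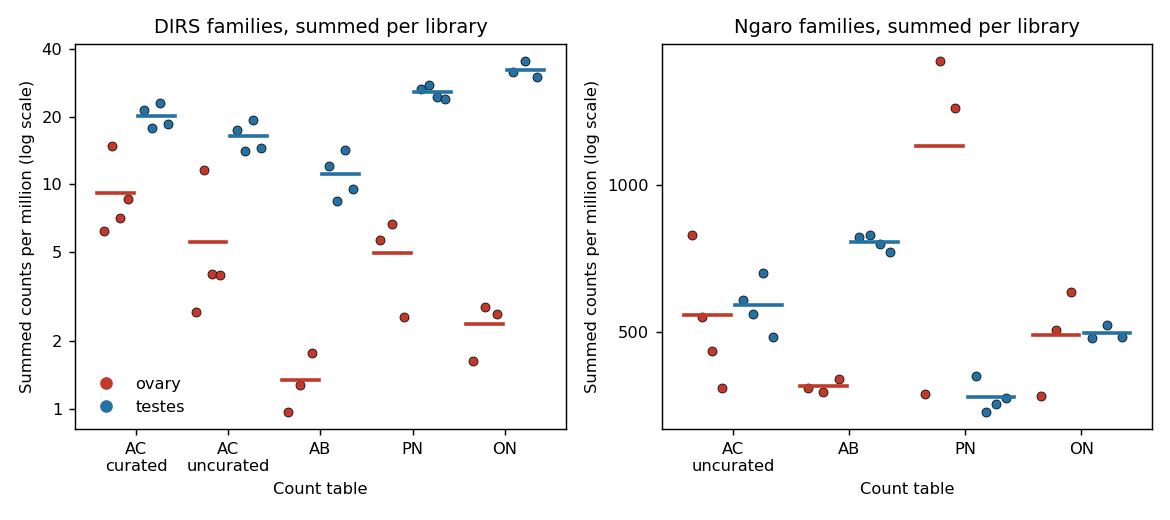
CPM (log scale) summed over the DIRS families (left) and the Ngaro families (right) of each count table, with one point per library, ovaries in red, testes in blue and a bar at the group mean. DIRS sums of ovaries and testes do not overlap in any table, whereas Ngaro sums on this TMM scale overlap in AC, PN and ON and are separate in AB.

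**Figure D2:**
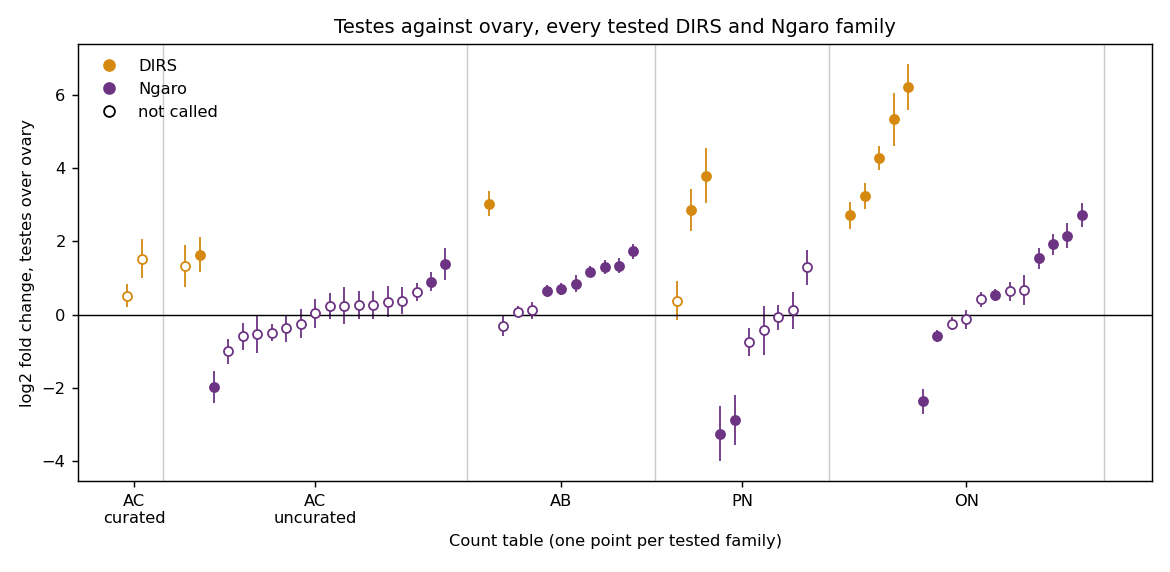
log2 fold change of testes over ovary for each tested family, with a standard error derived from the F statistic of the test, DIRS in orange and Ngaro in purple. Filled points passed the test at an adjusted p under 0.05 and open points did not. All 13 DIRS points lie above 0, while Ngaro points lie on both sides. The median over all TE families was above 0 in each table as well.

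The Nile tilapia showed the largest DIRS difference among these tables. All 5 of its DIRS families were called higher in testes, where 70.9% of the TE families tested in ON were called higher. Of these, rnd-5_family-6295, rnd-6_family-912 and rnd-6_family-913 passed the filter on low counts through their testes. Over the 5 families the median log2 fold change was 4.28, beside 1.82 over all TE families. Family rnd-4_family-887 held 11, 17 and 10 counts in the 3 ovaries and 423, 476 and 411 counts in the 3 testes. The testes libraries were close to each other and far from every ovary, at 13.9 ± 0.927 CPM against 0.711 ± 0.226 CPM (SD, n = 3 each), a log2 fold change of 4.28 (SE 0.34, edgeR adjusted p = 9.27e-06).

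A pair of DIRS families of ON had 3 counts or fewer over all ovaries. They were singled out for these low ovary counts and passed the filter through their testes. The ratios and calls below are thus a description. Family rnd-6_family-913 had 1, 0 and 2 counts in the ovaries and 113, 164 and 156 counts in the testes. That is a ratio of 81.9 in scaled counts, with a 95% exact interval of 27.8 to 399 that covers counting error only (edgeR adjusted p = 3.86e-05). Family rnd-6_family-912 had 0, 1 and 0 counts in the ovaries and 30, 34 and 26 in the testes, a ratio of 51.1 with an interval of 8.94 to 2039 (edgeR adjusted p = 0.00023). With 3 counts and 1 count behind the ovary values, these ratios carry wide errors, and the fitted fold changes depend on the count added before taking logs. The remaining families, rnd-6_family-453 and rnd-5_family-6295, rose by log2 fold changes of 3.24 (SE 0.35) and 2.71 (SE 0.38). Summed over the 5 families, DIRS reached 31.6, 35.1 and 30.0 CPM in testes and 1.64, 2.86 and 2.63 CPM in ovaries. As a share of all TE counts, DIRS took 0.0932% ± 0.0089 of TE counts in testes and 0.0158% ± 0.00128 in ovary (SD, n = 3 each).

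In P. nyererei, 2 of 3 DIRS families were called higher in testes, where 17.3% of TE families tested in PN were. Both called families passed the filter on low counts through their testes. Family rnd-6_family-886 held 41, 8 and 4 counts in the 3 ovaries, equal to 2.24, 1.26 and 0.25 CPM. The 4 testes held 444, 438, 162 and 494 counts, equal to 18.6, 19.4, 15.4 and 16.5 CPM, so that every testis lay above every ovary. Its log2 fold change was 3.79 (SE 0.75, edgeR adjusted p = 0.00479), which ranked 12 among 643 TE families by fold change. The other DIRS families of PN ranked 31 and 344. Elsewhere DIRS families ranked from 19 to 254 of 762 in ON and 95 of 701 in AB. In AC they ranked 173 and 301 of 480 (curated) and 79 and 123 of 659 (uncurated). Family rnd-5_family-4073 had 15, 3 and 6 counts in ovaries and 79, 91, 49 and 135 in testes, a log2 fold change of 2.85 (SE 0.57, edgeR adjusted p = 0.00487). The third, rnd-5_family-4861, measured 4.06 ± 0.698 CPM in testes (n = 4) and 3.15 ± 1.54 CPM in ovaries (n = 3), a log2 fold change of 0.38 with overlapping groups (edgeR adjusted p = 0.578). No setting run gave a call for it, and on TE families alone its sign turned (-0.35). Without the 2 shallowest libraries, a check chosen after seeing the data, the called DIRS families were again rnd-6_family-886 (4.01) and rnd-5_family-4073 (2.87). In that check 333 of 647 TE families were called higher, against 111 of 643 with all libraries. The median over all TE families was 1.60 in that check, against 0.52.

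A. burtoni has a single DIRS family, rnd-6_family-230. It held 21, 33 and 39 counts in the ovaries, equal to 0.972, 1.28 and 1.78 CPM. The testes held 313, 205, 349 and 247 counts, equal to 12.0, 8.44, 14.2 and 9.55 CPM, and no testis came near an ovary. The log2 fold change was 3.04 (SE 0.35, edgeR adjusted p = 4.44e-05), beside a median of 1.66 over all TE families, of which 73.2% were called higher in testes. As a share of TE counts the family took 0.0754% ± 0.0184 in testes (n = 4) and 0.0177% ± 0.00497 in ovaries (n = 3).

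In A. calliptera the difference was smaller and less certain. Under the curated annotation DIRS-1 measured 14.6, 12.0, 16.7 and 12.6 CPM in the 4 testes and 1.95, 10.6, 3.29 and 3.46 CPM in the 4 ovaries. The groups did not overlap, but ovary replicate 2 lay close to the testes and far above the other ovaries. The log2 fold change was 1.53 (SE 0.53) and was not called (edgeR adjusted p = 0.0670). Without ovary replicate 2 it was 2.25 and was called (edgeR adjusted p = 0.00748). In ovary replicate 2 the meiotic markers summed to 11.2 CPM, beside 8.57 to 18.5 CPM over all ovaries and 397 to 1241 CPM in testes, and the sperm cell markers to 2.28 CPM, beside 104 to 955 CPM in testes. The testis somatic markers summed to 19.5 CPM there, the highest of the ovaries (the others 8.04 to 17.1 CPM), beside 87.4 to 128 CPM in testes, and the oocyte markers to 1732 CPM, the lowest of the ovaries (the others 2767 to 3925 CPM). TE families took 1.99% of its assigned counts, beside 0.656% to 1.15% in the other ovaries and 1.40% to 1.77% in testes. The part of these in the DIRS-1 value was not tested.

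DIRS-2 measured 6.77, 5.74, 6.22 and 5.95 CPM in testes and 4.21, 4.13, 3.81 and 5.10 CPM in ovaries. All testes lay above all ovaries, by a log2 fold change of 0.52 (SE 0.32, edgeR adjusted p = 0.271) that turned to -0.64 in the fit on TE families alone. Among the curated families, 0 of 2 were thus called by edgeR, where 34.6% of TE families were called higher. At an unadjusted p under 0.05 1 passed, and 1 each was called higher by DESeq2 and by limma. DESeq2 called 228 of 554 TE families higher, and limma, adjusted over TE families alone, 237 of 557. The median log2 fold change of both families, 1.02, stood beside 0.93 over all TE families of the table.

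Under the uncurated annotation a DIRS family was called. Family rnd-1_family-511 measured 13.1, 11.2, 13.8 and 10.7 CPM in testes and 2.02, 8.05, 2.81 and 2.81 CPM in ovaries, with ovary replicate 2 again the highest ovary. In the same libraries it held between 76.4% and 104% as many counts as curated DIRS-1. Its log2 fold change was 1.63 (SE 0.48) and was called (edgeR adjusted p = 0.0385), but the call was held in only 2 of 8 fits that left out 1 library, with adjusted p up to 0.114. Left out in turn, ovary replicates 3 and 4 and each of the 4 testes libraries ended it. Family rnd-1_family-654 reached a log2 fold change of 1.33 (SE 0.56, edgeR adjusted p = 0.121) with overlapping groups. Thus 1 of 2 DIRS families was called higher, where 14.1% of TE families were, and both were by DESeq2 and by limma.

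Ngaro families did not share one direction. Over the tables, 14 of 46 tested entries were called higher in testes, 5 lower and 27 neither, and 29 fitted differences were above 0 and 17 below. Summed Ngaro CPM separated the organs in AB and overlapped in AC, PN and ON, but on total counts ON separated as well, and as a share of TE counts ON and PN separated and AB and AC overlapped. How many were called, and in which direction, depended on the setting. On TE families alone 2 were called higher and 22 lower, and on total counts 21 higher and 4 lower. The fit on TE families alone changed the spread and the p adjustment as well as the scaling. The counts over all TE families moved with these settings too. They are given below for ON under both settings and for AB and AC on TE families alone. In PN, the fit on TE families alone gave 87 of 643 TE families higher and 100 lower. Total counts gave 192 higher and 9 lower there, against 111 and 30 on the TMM scale. In AB, total counts gave 528 of 701 TE families higher and 40 lower. In AC (uncurated) they gave 87 of 659 higher and 14 lower.

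In A. burtoni 7 of 10 Ngaro families were called higher in testes and 0 lower (0 lower at an unadjusted p under 0.05, by DESeq2 or by limma), where 73.2% of TE families were higher and 6.56% lower. The median log2 fold change of 0.77 lay below that of 1.66 over all TE families. Family rnd-2_family-32 measured 306, 355, 284 and 253 CPM in testes and 126, 137 and 137 CPM in ovaries. Every testis was above every ovary, with a log2 fold change of 1.17 (SE 0.15, edgeR adjusted p = 8.50e-05). Family rnd-1_family-1 measured 160, 142, 161 and 198 CPM in testes and 57.3, 59.8 and 83.5 CPM in ovaries, and its log2 fold change was 1.30 (SE 0.18). Families rnd-5_family-1842 and rnd-5_family-1403 rose by 1.73 (SE 0.21) and 1.34 (SE 0.20), and the other 3 called families by 0.65 to 0.84. The 3 that were not called lay between -0.30 and 0.11. Summed, Ngaro measured 766 ± 27.1 CPM in testes (n = 4) and 388 ± 12.6 CPM in ovaries (n = 3), but as a share of TE counts it took 5.22% ± 0.132 and 5.14% ± 0.0852. In the fit on TE families alone, 7 of the 10 were called lower and 0 higher, where 210 of 701 TE families were lower and 219 higher. The families above 0 numbered 1 of 10 in place of 9. Families rnd-1_family-1, rnd-2_family-32 and rnd-5_family-1403 were among those whose sign changed.

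In the Nile tilapia 5 of 12 tested Ngaro families were called higher in testes and 2 lower, where 70.9% of TE families were higher and 9.71% lower. The clearest drop was that of rnd-6_family-1626, which held 621, 1227 and 1355 counts in ovaries and 353, 368 and 390 in testes. At 31.9, 70.1 and 81.1 CPM the ovaries varied among themselves, while the testes stood at 11.4, 11.5 and 12.4 CPM and below all of them. Its log2 fold change was -2.37 (SE 0.33, edgeR adjusted p = 2.66e-04), which ranked 9 from the lowest among 762 TE families. Family rnd-2_family-52 measured 121, 119 and 111 CPM in testes and 137, 178 and 212 CPM in ovaries (log2 fold change -0.59, SE 0.17, edgeR adjusted p = 0.0119), and on total counts its sign turned, to 0.28.

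Other Ngaro families of ON rose. Family rnd-1_family-137 reached 7.15 ± 1.54 CPM in testes and 1.08 ± 0.201 CPM in ovaries (n = 3 each), a log2 fold change of 2.72 (SE 0.33, edgeR adjusted p = 1.19e-04). Families rnd-5_family-451 and rnd-1_family-38 followed with 2.15 (SE 0.34) and 1.91 (SE 0.29). Family rnd-1_family-78 rose by 1.54 (SE 0.29). Families rnd-1_family-137, rnd-5_family-451, rnd-1_family-38 and rnd-1_family-78 were named after their values were seen. Family rnd-4_family-36 measured 166, 171 and 161 CPM in testes and 91.0, 117 and 136 CPM in ovaries, a log2 fold change of 0.53 (SE 0.16, edgeR adjusted p = 0.0145) that turned to -1.12 on TE families alone. Family rnd-1_family-54 differed by 0.64 (SE 0.26) and was not called (edgeR adjusted p = 0.0529), and neither were 4 others, between -0.25 and 0.67. The Ngaro sum was 498 ± 16.7 CPM in testes and 494 ± 117 CPM in ovaries, a log2 ratio of 0.01 that became 0.88 on total counts, where testes (639 to 705 per 1000000 assigned counts) and ovaries (296 to 429) did not overlap, while the Ngaro share of TE counts was 1.44% ± 0.0634 in testes and 3.30% ± 0.232 in ovaries (SD, n = 3 each). On TE families alone 1 Ngaro family was called higher and 8 lower, where 301 of 762 TE families were higher and 266 lower. On total counts 10 Ngaro families were called higher and 1 lower, where 645 of 762 TE families were higher and 24 lower. Of the 2 untested families, rnd-1_family-83 had 11 counts over the testes and 1 over the ovaries, and rnd-1_family-591 had 6 and 0.

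In P. nyererei the ovaries disagreed with each other. Family rnd-1_family-1 measured 71.0, 908 and 699 CPM in ovary replicates 1, 2 and 3 and 65.0, 55.2, 58.8 and 54.1 CPM in the testes. Ovary replicates 2 and 3 were far above every other library, and ovary replicate 1 lay just above the testes. Family rnd-5_family-1356 moved in step, with 46.9, 480 and 352 CPM in the ovaries and 47.5, 38.0, 33.1 and 39.9 CPM in the testes, so that ovary replicate 1 overlapped with testes. In counts, rnd-1_family-1 stood at between 1.36 and 1.99 times rnd-5_family-1356 in each of the 7 libraries. Both were called lower in testes, with log2 fold changes of -3.26 (SE 0.75, edgeR adjusted p = 0.00892) and -2.89 (SE 0.68, edgeR adjusted p = 0.0100), where 4.67% of TE families were called lower. With limma on the deposited log2 values neither was called. Ovary replicate 2 was among the 2 shallowest libraries, but ovary replicate 3, with 21651838 assigned counts, was not, and without both shallow libraries the values were -2.57 and -2.10 and both were called.

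No other Ngaro family of PN was called by edgeR. Over all 7 families, 1 was higher and 2 lower at an unadjusted p under 0.05, DESeq2 called 1 higher and 2 lower, and limma 0. Family rnd-3_family-173 measured 137, 114, 127 and 139 CPM in testes and 167, 205 and 281 CPM in ovaries. The groups did not overlap and the log2 fold change was -0.75 (SE 0.37, edgeR adjusted p = 0.126). Without the 2 shallow libraries rnd-4_family-237 (1.15) and rnd-5_family-3170 (1.56), both chosen after their values were seen, were called higher. In those fits 333 of 647 TE families were called higher and 24 lower, with a median of 1.60 over all TE families. Ngaro summed to 374, 1793 and 1436 CPM in the ovaries and to between 344 and 406 CPM in testes. It took 5.35%, 7.49% and 17.0% of all TE counts in ovary replicates 1, 2 and 3, against 2.80% to 3.31% in the testes.

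**Figure D3:**
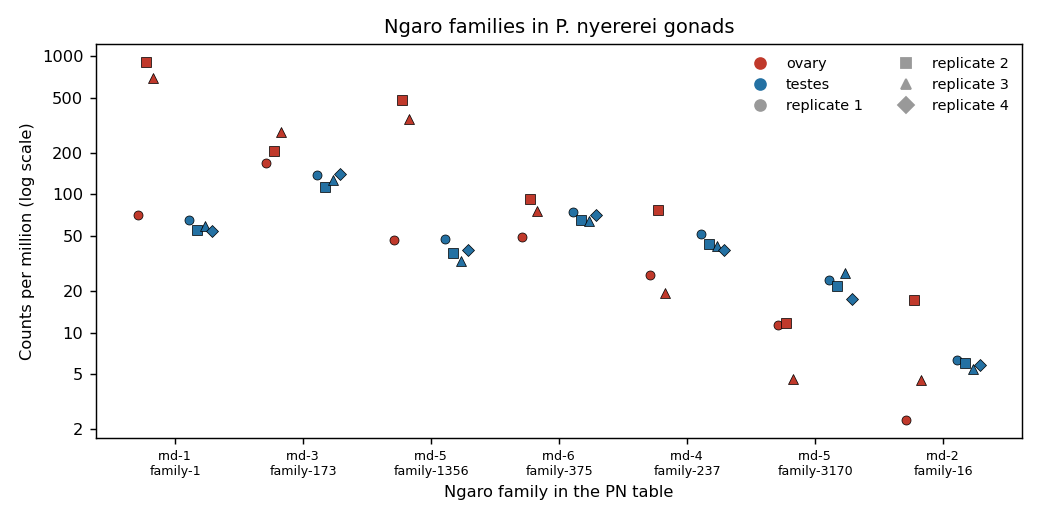
CPM (log scale) of the 7 Ngaro families of P. nyererei in 3 ovaries (red) and 4 testes (blue), with marker shape giving the replicate number, which does not pair the organs. Families rnd-1_family-1 and rnd-5_family-1356 are high in ovary replicates 2 and 3 and near the testes in ovary replicate 1.

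In A. calliptera 2 of 17 tested Ngaro families were called higher in testes and 1 lower, where 14.1% of TE families were higher and 2.12% lower. Family rnd-5_family-832, the one that fell, measured 103, 38.0, 27.3 and 33.4 CPM in ovaries and 12.1, 12.7, 12.4 and 13.7 CPM in testes. All ovaries lay above all testes, and the log2 fold change was -1.99 (SE 0.44, edgeR adjusted p = 0.0124). In counts, ovary replicates 1 to 4 held 1381, 1051, 681 and 857. Ovary replicate 1 stood highest, and its low TMM factor (0.638 under the uncurated annotation) raised its CPM for every feature. The smooth muscle marker acta2 was also highest in that ovary (716 CPM summed over its 2 copies, beside 28.4 to 254 CPM in the other ovaries), and its part in the result was not tested. Without ovary replicate 1 the log2 fold change was -1.41 and was called.

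Family rnd-5_family-68 rose, with 191, 160, 158 and 99.7 CPM in testes and 112, 72.5, 76.4 and 65.3 CPM in ovaries. The groups overlapped in 1 library of each organ, and the log2 fold change was 0.90 (SE 0.26, edgeR adjusted p = 0.0376). Family rnd-3_family-27, with 84, 64, 107 and 74 counts in testes and 20, 43, 27 and 17 counts in ovaries, passed narrowly (1.37, SE 0.44, edgeR adjusted p = 0.0497). The call of rnd-3_family-27 was lost without any single testes library and without ovary replicate 3 or 4, and that of rnd-5_family-68 without any of ovary replicates 2, 3 and 4 and testes replicates 1, 2 and 3. Families rnd-6_family-1696 (0.61, edgeR adjusted p = 0.102) and rnd-4_family-42 (-0.50, edgeR adjusted p = 0.148), which hold many of the Ngaro counts, were not called, and 2 families were too low for the test. Summed, Ngaro measured 569 ± 71.7 CPM in testes and 542 ± 176 CPM in ovaries (n = 4 each). On TE families alone 1 Ngaro family was called higher and 4 lower, where 104 of 659 TE families were higher and 110 lower.

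The contrast between both superfamilies can be read within each library, where no scaling is needed. DIRS counts per 1000 Ngaro counts, a ratio added after the values were seen, ran from 61.2 to 67.9 in ON testes and from 4.36 to 5.64 in ON ovaries. In PN they ran from 65.0 to 80.4 in testes and from 1.79 to 15.2 in ovaries. Ovary replicates 2 and 3 of PN, where rnd-1_family-1 and rnd-5_family-1356 were high, gave 3.70 and 1.79. Ovary replicate 1 gave 15.2, so the Ngaro level enters these PN ratios. In AB they ran from 10.7 to 18.7 in testes and from 2.53 to 4.42 in ovaries. In AC (uncurated) they ran from 25.9 to 29.9 in testes and from 3.41 to 21.6 in ovaries, with ovary replicate 2 the highest. In none of the 4 tables did the organs overlap, and the ratio is given as a description with no test.

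**Figure D4:**
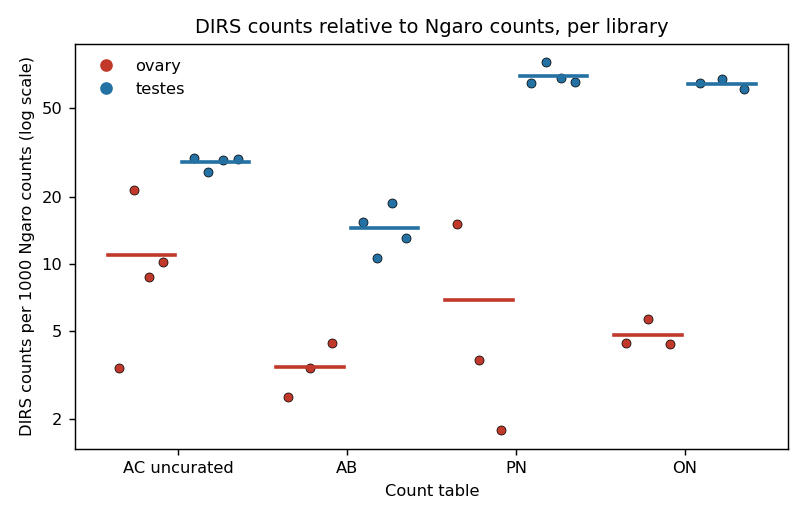
DIRS counts per 1000 Ngaro counts (log scale) in each gonad library of the 4 tables that hold both superfamilies, ovaries in red and testes in blue, with a bar at the group mean. Every testis lies above every ovary of its table, most widely in ON.

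Other LTR-class superfamilies, which use a DDE integrase, were also often higher in testes, and the difference from DIRS was not tested. In ON, Gypsy families were called higher in 19 of 27 and lower in 1, with a median log2 fold change of 2.63. Pao was called higher in 7 of 7 (median 4.09) and Copia in 3 of 3 (4.14). ERV was called higher in 17 of 24 and lower in 2 (2.29). These stood beside 4.28 for DIRS and 0.59 for Ngaro. In PN, 5 of 15 Gypsy families were called higher (median 1.29) and 0 of 4 ERV families were called (-0.28), beside 2.85 for DIRS and -0.44 for Ngaro. In AB, 15 of 23 Gypsy families were called higher and 2 lower (median 1.27). There 3 of 4 ERV families were called higher (median 1.85), and so was the 1 Pao family (5.45). These stood beside 3.04 for the DIRS family and 0.77 for Ngaro. In the uncurated AC table, 13 of 35 Gypsy and 3 of 5 Pao families were called higher, with medians of 0.99 and 3.30. Of 10 ERV families, 0 were called (median 0.29), beside 1.48 for DIRS and 0.23 for Ngaro. In the curated AC table, 77 of 166 Gypsy, 35 of 66 Pao and 5 of 5 Copia families were called higher, with medians of 1.59, 2.21 and 2.93, beside 1.02 for DIRS. Of the Pao families 1 was called lower. ERV families of that table were called higher in 4 of 20 and lower in 6, with a median of 0.21. Cryptons, DNA transposons that also carry a tyrosine recombinase, were represented by 1 tested family, in ON, with a log2 fold change of 0.15 that was not called.

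Genes of the piRNA pathway were counted in AC alone. Of 16 tested gene identifiers, 10 were called higher and 0 lower (0 lower at an unadjusted p under 0.05 and 0 by DESeq2), with a median log2 fold change of 1.33. Over all genes and TE families of the table, 2533 of 18788 were called higher and 1759 lower, with a median of 0.01. Summed, the piRNA pathway genes reached between 3347 and 3828 CPM in testes and between 1289 and 1876 CPM in ovaries. Among them piwil2, a Piwi protein gene, measured 258 CPM in testes and 116 CPM in ovaries (log2 fold change 1.16, edgeR adjusted p = 0.00979), and ddx4, the germ cell helicase Vasa, 395 and 174 CPM (1.19, edgeR adjusted p = 0.00992). Pld6, a piRNA pathway protein of the mitochondrial surface in mouse, rose by 1.82 (edgeR adjusted p = 0.00548). Of the piwil1 identifiers, the most abundant rose by 2.02 (edgeR adjusted p = 0.0118). Another was not called (1.96, edgeR adjusted p = 0.224), and the rest were too low for the test. Below 0 and not called were henmt1 (-0.62, edgeR adjusted p = 0.286) and fkbp6 (-0.28, edgeR adjusted p = 0.491). The genes named here were chosen after their values were seen. A relation between the piRNA pathway genes and the DIRS families was not tested.

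Within Lake Malawi, testes of 3 species were compared for the curated families. DIRS-1 measured 14.8, 12.7, 15.7 and 13.3 CPM in AC, 8.20 and 7.75 CPM in MZ and 8.34, 8.67, 11.6 and 5.59 CPM in TM. In CPM all AC testes lay above all MZ and TM testes. As a share of TE counts, both DIRS families summed overlapped between species. AC replicate 2 stood at 0.115%, below MZ replicate 1 (0.122%) and TM replicate 3 (0.127%). The other MZ and TM testes stood lower, MZ replicate 2 at 0.0719%. In TM against AC the log2 fold change was -0.72 (SE 0.23, edgeR adjusted p = 0.0447), so that 1 of 2 DIRS families was called lower, where 8.48% of TE families were. The call is fragile: left out in turn, each of the 4 AC libraries and TM replicates 1, 2 and 4 ended it, with log2 fold changes between -0.79 and -0.57. In MZ against AC the log2 fold change was -0.82 and was not called (edgeR adjusted p = 0.0971), and 0 of 2 families were called, where 16% of TE families were, with 1 lower at an unadjusted p under 0.05, 1 lower by DESeq2 and 0 by limma. The 2 MZ libraries differed in TE level, at 1.17% and 1.96% of assigned counts. The median log2 fold change over all TE families in MZ against AC was 0.40. It was 0.69 without MZ replicate 1 and -0.03 without MZ replicate 2.

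TM and MZ did not separate for DIRS-1 (log2 fold change 0.10), and the sign turned on total counts (-0.02). DIRS-2 measured 6.86, 6.05, 5.85 and 6.28 CPM in AC, 6.50 and 5.24 CPM in MZ and 5.33, 6.39, 6.63 and 5.41 CPM in TM. Those ranges overlapped, with log2 fold changes of -0.08 (TM against AC), -0.09 (MZ against AC) and 0.02 (TM against MZ). Between TM and MZ 0 of 2 families were called, where 13.1% of TE families were, and 0 passed at an unadjusted p under 0.05, by DESeq2 or by limma. Contrasts with AC share its 4 testes libraries. Of all genes and TE families, 18.8% (TM against AC), 8.9% (MZ against AC) and 10.2% (TM against MZ) were called. Reads of MZ and TM were mapped to the AC genome, so species and mapping to a foreign genome cannot be told apart.

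**Figure D5:**
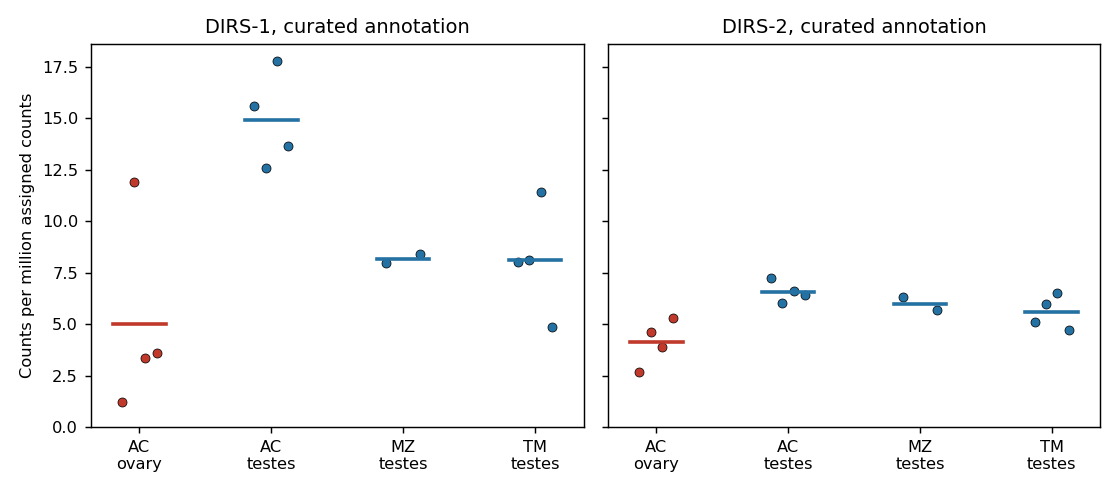
Counts per 1000000 assigned counts of DIRS-1 (left) and DIRS-2 (right), curated annotation, in AC ovaries (red) and in testes of AC, MZ and TM (blue), with one point per library and a bar at the group mean. DIRS-1 is higher in each AC testis than in each MZ or TM testis, while DIRS-2 testes overlap between species.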

How the data were processed

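Raw counts per gene and per TE family were made by the authors from poly(A), strand-specific, paired-end reads. Reads were trimmed with Trimmomatic 0.39 and aligned to a cichlid genome with STAR 2.5.4b, keeping reads with many matches, and counted with TEtranscripts, which shares multi-mapping reads among copies. Repeat families came from RepeatModeler and RepeatMasker, with a curated library for AC. The deposited log2 values are regularised log values made with DESeq2 by the authors, and were used as an alternative only. A further deposited table, of score values named length-scaled TPM by the authors (Salmon 1.5.1), served only to pair AC gene identifiers with names. A table of AC gene counts without TE families was not used.

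Counts were fitted per table with edgeR 4.0.16 (R 4.3.3, robust quasi-likelihood, TMM scaling over genes and TE families, filterByExpr) and adjusted over all features by Benjamini-Hochberg. Testes were compared with ovaries within each species, and testes among Lake Malawi species in one fit. Standard errors (SE) of fold changes are the absolute log2 fold change divided by the square root of the F statistic. They were not estimated directly. CPM are counts per 1000000 scaled counts. Alternatives were scaling on total counts, a fit on TE families alone, no filter, DESeq2 1.42.0, limma 3.58.1 on the log2 values, the replicate block and leaving out each library. The fit on TE families alone left out the genes, so its scaling, spread and adjustment all rested on TE families. The log2 values cover TE families alone, so limma adjusted over these. The code was tested on simulated counts. Every curated family was named and, elsewhere, the 3 families of highest mean CPM and the 3 largest called changes in each direction. Other families the text names were chosen after their values were seen. Members and lists were chosen with earlier results of these data known. Gene lists were matched by symbol in AC only. In the count tables of genes and TE families, 0 columns of per-sample values were left out.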

Additional observations from a re-analysis of the deposited data

Results flagged for a closer look

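In groups of 4 libraries, the gap between the most distant library and its nearest neighbour was set against the group's range. Of 38 groups tested, 4 had a library that far from the others, all of them in the uncurated AC table, and chance alone gives about 1 in 20. Family rnd-1_family-511 (DIRS) measured 8.05 CPM in ovary replicate 2, beside 2.02, 2.81 and 2.81 CPM in the other ovaries, and the summed DIRS level in the same ovary was 11.6 CPM, beside 2.69, 3.94 and 3.97 CPM. These flags rest on the same reads, since rnd-1_family-511 is part of the sum. Family rnd-5_family-832 (Ngaro) measured 103 CPM in ovary replicate 1, beside 27.3, 33.4 and 38.0 CPM. The low TMM factor of ovary replicate 1 (0.638) raised its CPM, and the gap was not measured on total counts. Family rnd-6_family-1696 (Ngaro) measured 170 CPM (169.9) in testes replicate 3, beside 102, 105 and 113 CPM in the other testes. The causes were not tested.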

How the results depend on the processing

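On TE families alone the tested Ngaro entries above 0 numbered 8 of 46, against 29, and the DIRS entries 11 of 13, against 13. Among the families named by rule the sign turned for DIRS-2 in the curated AC table (-0.64), for rnd-1_family-1 (-0.31), rnd-2_family-32 (-0.44) and rnd-5_family-1403 (-0.29) in AB, and for rnd-1_family-54 (-1.003) and rnd-4_family-36 (-1.12) in ON. On total counts it turned for rnd-2_family-52 in ON (0.28) and, in TM against MZ, for DIRS-1 (-0.016) and DIRS-2 (-0.10), the last also with limma (-0.0091). Total counts moved the median of all features most in ON, from 0.63 to 1.48, and in PN, from -0.19 to 0.40. Summed log2 ratios on total counts were 1.09 for Ngaro in AB, 2.97 for DIRS and -0.92 for Ngaro in PN (against -1.70), and 4.63 for DIRS and 0.88 for Ngaro in ON.

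Families called in the curated AC table numbered 1 with DESeq2 and 1 with limma, against 0, and 2 with limma in PN, against 4. In TM against AC 0 were called without the filter, against 1, and in MZ against AC 1 with DESeq2 and 1 on TE families alone, against 0.

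Replicate numbers did not pair the organs (correlations of deviations from -0.16 to 0.03). With the replicate block 0 families were called in the uncurated AC table, against 4, 2 in PN, against 4, and 0 in TM against AC, against 1. Without one library, calls ran from 0 to 1 in the curated and from 1 to 7 in the uncurated AC table, the highest without ovary replicate 1, and from 0 to 1 in TM against AC. Log2 fold changes ran through 0 in such fits for DIRS-2 in MZ against AC (-0.27 to 0.056), for DIRS-1 in TM against MZ (-0.11 to 0.26) and for DIRS-2 in TM against MZ (-0.13 to 0.20). Of the fits of named families, 356 kept direction and call and 16 changed sign, 42 lost the call and 13 gained it. The causes were not tested. Depth limits families under about 10 counts per library.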
